A study of Mus musculus with 23 samples.

Results

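The genes described here encode blood coagulation factors and proteins of the anticoagulant protein C system. Members were taken by gene symbol from a list of 10 genes (F2, F5, F7, F9, F10, F11, Proc, Pros1, Klkb1 and Cpb2), and 9 of the 10 had a feature on the array, 1 feature each, out of 22575 features in all and 18688 with a listed gene. Cpb2 had no feature under that symbol or gene number and was not analysed here. The mice were female C57BL/6 mice, 12-13 weeks old per the labels, while the study's methods give a younger age. They inhaled filtered air (8 mice), carbon black (CB, Printex 90; 8 mice) or diesel exhaust particles (DEP, the standard reference material 2975; 7 mice), for 90 min on each of 4 days, and the particle concentration was 20 mg/m3. Whole liver was taken 90 min after exposure per the labels, and the study's methods give a shorter time. Every array held liver RNA from 1 mouse labelled with Cy5, and universal mouse reference RNA labelled with Cy3, with the same dye orientation on all 23 arrays.

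Hepatocytes make most of the circulating coagulation factors and secrete them as inactive precursors. Clotting starts when tissue factor binds factor VII, and the contact pathway, through prekallikrein and factor XI, feeds into the same cascade, which ends with factor X and factor V converting prothrombin to thrombin. Thrombin bound to thrombomodulin activates protein C, which with its cofactor protein S degrades activated factor V and so slows clotting. Prothrombin, factors VII, IX and X, protein C and protein S carry glutamate residues that are carboxylated in a vitamin K-dependent step.

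The values below are log2 ratios of liver signal to reference signal after loess normalization within each array, so a value says how far a gene's signal in liver lay above the reference pool, and levels are not compared between genes. Median signals of the arrays were between 262 and 549 in Cy5 and between 213 and 444.75 in Cy3, and 13.8% to 41.9% of the features with a listed gene were flagged absent in Cy5. All 8 hepatocyte marker genes measured, among them Alb, Ttr and Apoa1, were flagged present on every array, and 3 of them were saturated in Cy5 on every array. The mean log2 ratio of 7 platelet and megakaryocyte genes was -0.54 to -0.20 in air mice, -0.50 to -0.20 in CB mice and -0.50 to 0.04 in DEP mice. That of 6 Kupffer cell genes was 1.19 to 1.84, 1.11 to 1.91 and 1.13 to 2.22 in the same order, and the part of other cells in the results was not tested. In whole liver, fewer hepatocytes and less RNA per hepatocyte cannot be told apart.

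Both pairs of neighbouring members lie on mouse chromosome 8, F7 beside F10 and F11 beside Klkb1, with 0 annotated protein-coding genes between the members of each pair. Their promoter windows, from 250 bases before to 50 bases after the annotated start (RefSeq, GRCm38.p6, written in the direction of the gene), are shown because the relation between neighbours is described with the results. Capitals mark CAAAG, the core of sites bound by the liver factor HNF4, and TGTTTAC, a site type bound by FOXA factors, on either strand.
F7 (chr8:13025784-13026083, plus strand): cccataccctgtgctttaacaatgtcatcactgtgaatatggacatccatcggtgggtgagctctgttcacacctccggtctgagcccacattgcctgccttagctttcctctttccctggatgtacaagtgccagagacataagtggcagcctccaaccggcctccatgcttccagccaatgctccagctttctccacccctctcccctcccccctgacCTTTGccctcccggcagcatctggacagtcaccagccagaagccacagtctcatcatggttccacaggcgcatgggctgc
F10 (chr8:13037058-13037357, plus strand): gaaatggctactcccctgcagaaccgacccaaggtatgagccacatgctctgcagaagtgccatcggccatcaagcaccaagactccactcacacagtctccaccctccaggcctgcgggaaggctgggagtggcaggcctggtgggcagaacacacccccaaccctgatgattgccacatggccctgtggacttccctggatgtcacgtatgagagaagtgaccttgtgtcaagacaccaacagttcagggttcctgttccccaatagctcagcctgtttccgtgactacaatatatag
F11 (chr8:45261982-45262281, minus strand): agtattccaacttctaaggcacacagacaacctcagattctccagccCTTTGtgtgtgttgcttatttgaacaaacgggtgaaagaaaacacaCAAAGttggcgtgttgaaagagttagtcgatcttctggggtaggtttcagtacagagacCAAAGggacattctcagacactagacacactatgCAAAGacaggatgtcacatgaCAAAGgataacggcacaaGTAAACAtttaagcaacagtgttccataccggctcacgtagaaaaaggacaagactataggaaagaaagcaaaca
Klkb1 (chr8:45294786-45295085, minus strand): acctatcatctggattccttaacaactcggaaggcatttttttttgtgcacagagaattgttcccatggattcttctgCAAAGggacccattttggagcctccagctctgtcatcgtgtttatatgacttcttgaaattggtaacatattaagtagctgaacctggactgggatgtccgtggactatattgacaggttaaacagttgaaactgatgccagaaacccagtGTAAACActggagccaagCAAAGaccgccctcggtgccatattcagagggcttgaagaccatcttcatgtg
The windows of F11 and Klkb1 both held TGTTTAC, which was in 3.65% of the 32851 promoter windows of the same table. CAAAG was in 7 of the 9 member windows found (F5, F7, F9, F11, Pros1, Klkb1 and Cpb2) and in 53.9% of all windows. GTTAAT, part of the site bound by HNF1, was found in the window of F2 and in 7.1% of all windows, and TATAAA in that of Klkb1 and in 13.6% of all windows. None of the motifs contains another, all were searched on both strands, and a match is a description of the letters only.

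The question of the comparison was whether inhaled CB or DEP changed the hepatic mRNA levels of these genes relative to filtered air. No member passed the threshold of an adjusted p under 0.05 in limma after CB or DEP. The fold changes of the 8 members with a measurable change were between -0.36 (F11) and 0.25 (Klkb1) on the log2 scale after CB, and between -0.26 (F11) and 0.35 (Klkb1) after DEP. Of these 8 members 0 passed after CB, where 0% of all 18688 features passed, and 0 had an unadjusted p under 0.05, against 5.94% of all features. After DEP the counts were also 0 and 0 of 8, against 0% and 4.82% of all features. The Fs test, a permutation test that shrinks each feature's variance towards the others, called 0 features in each comparison, with 1095 features after CB and 969 after DEP at an unadjusted p under 0.05.

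After CB 6 of 8 members lay below air, against 49.8% of all features, with a median log2 fold change of -0.06, and the median of all features was 0.00064. After DEP 3 of 8 members lay below air, against 50.0% of all features, with a median of 0.09 against 6.4e-05 for all features. These counts and medians depended on the scaling and on single mice. With each array centred on its median in place of loess, 8 of 8 members lay below air after CB, with a median of -0.38, while the median of all features was -0.11. After DEP it gave 5 of 8 members below air and a median of -0.10, against -0.04 for all features, and the Cy5 signal taken alone gave 5 of 8 and a median of -0.23. Leaving out 1 mouse gave medians from -0.19 (without CB mouse 59) to 0.0098 (without CB mouse 835436) after CB, and from -0.0096 (without DEP mouse 444) to 0.14 (without DEP mouse 55) after DEP. The mean log2 ratio of the 8 hepatocyte markers was 4.46 to 5.44 in air mice, 3.51 to 4.88 in CB mice and 4.21 to 4.99 in DEP mice. Of these markers 3 were saturated in Cy5 on every array, so their ratios are lower bounds that vary with the Cy3 signal. The summed Cy5 signal of all 8, not normalized, was 280798 to 431832 (air), 341778.5 to 436887 (CB) and 322866.5 to 461503 (DEP). The part of the hepatocyte markers in the members' values was not tested. The ranges of CB and air, and those of DEP and air, overlapped for all 8 members, and they did not overlap for 0.0589% and 0.0107% of all features.

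**Figure D1:**
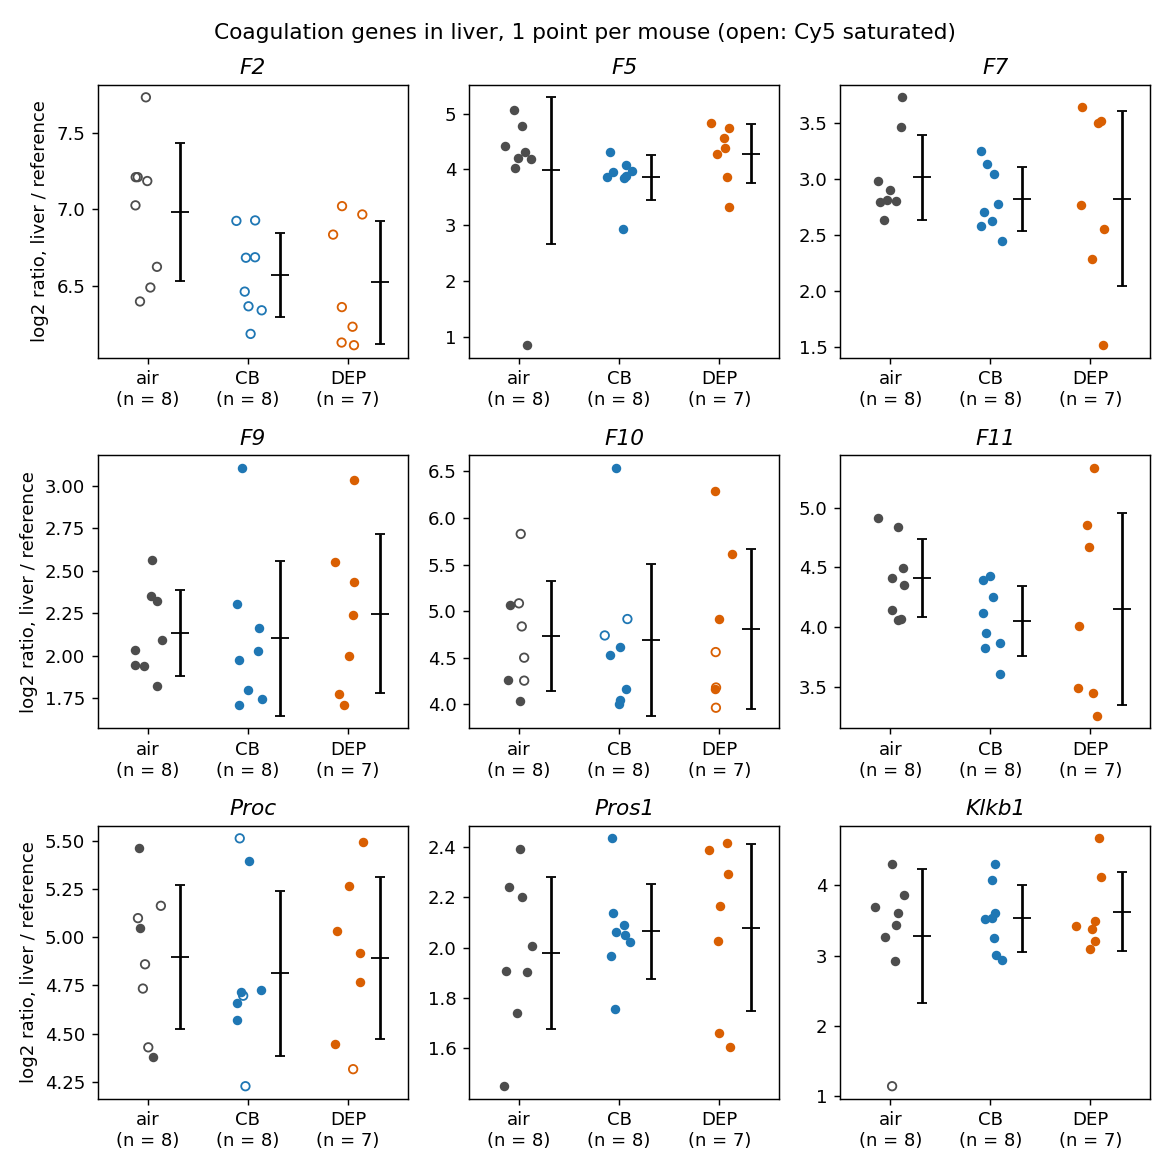
Log2 ratio of liver to reference (vertical axis, no unit) of the 9 measured members by exposure group, with 1 point per mouse and the mean and SD beside the points. Open points are spots saturated in Cy5, as on all 23 arrays for F2, and 1 air mouse of F5 and 1 of Klkb1 lie far below the rest of their group.

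F7 encodes the protease that starts clotting together with tissue factor. Its log2 ratio was 2.64 to 3.73 in air mice (median 2.86), 2.45 to 3.25 in CB mice (median 2.75) and 1.52 to 3.65 in DEP mice (median 2.77). Below the lowest air mouse lay 3 of the 8 CB mice and 3 of the 7 DEP mice, and 0 of either group lay above the highest. The means were 3.02 ± 0.38 (SD, n = 8), 2.82 ± 0.29 (n = 8) and 2.83 ± 0.78 (n = 7) in air, CB and DEP mice. The log2 fold change was -0.19 after CB, with a 95% confidence interval of -0.68 to 0.29 (limma, adjusted p = 0.933). It was -0.19 after DEP, with an interval of -0.69 to 0.31 (adjusted p = 0.997). The lowest value of all, 1.52, belonged to DEP mouse 56, and without that mouse the DEP fold change was 0.03.

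The contact pathway is represented by F11, the precursor of the protease that activates factor IX, and by Klkb1, plasma prekallikrein. F11 was between 4.06 and 4.91 in air mice (median 4.38), between 3.61 and 4.43 in CB mice (median 4.03) and between 3.26 and 5.33 in DEP mice (median 4.01). Thus 4 of the 8 CB mice and 4 of the 7 DEP mice were below the lowest air mouse, while DEP mouse 51 was above the highest. The means were 4.41 ± 0.33 (SD, n = 8) in air mice, 4.05 ± 0.29 (n = 8) after CB and 4.15 ± 0.81 (n = 7) after DEP. Of the 8 members with a measurable change, F11 had the lowest unadjusted p after CB, 0.143 in limma. Its log2 fold change was -0.36 (SE 0.24, interval -0.84 to 0.13, adjusted p = 0.888). After DEP it was -0.26, with an interval of -0.76 to 0.24 and an adjusted p of 0.997, and it was -0.46 without DEP mouse 51 and -0.11 without DEP mouse 835434. Of the channels taken alone, the Cy5 signal of F11 differed by -0.11 after CB, and the Cy3 signal of the reference by 0.32, on a log2 scale with quantile normalization (unadjusted p = 0.0345, adjusted p = 0.996 in limma). After DEP the Cy5 signal differed by 0.06, the opposite sign to the ratio, and the Cy3 signal by 0.36 (unadjusted p = 0.0215, adjusted p = 0.963 in limma).

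Klkb1 was 1.14 to 4.31 in air mice (median 3.52), 2.93 to 4.30 in CB mice (median 3.53) and 3.09 to 4.66 in DEP mice (median 3.42). The medians of the groups were thus close together, and the spread of the air group came from 1 mouse. On the array of air mouse 835432 the Klkb1 spot was saturated in Cy5 at 65535, and its Cy3 signal was 18548, whereas the median Cy3 signal of the air group was 227.5. The means were 3.28 ± 0.95 (SD, n = 8), 3.53 ± 0.48 (n = 8) and 3.62 ± 0.56 (n = 7), and the fold changes 0.25 after CB (interval -0.41 to 0.91, limma, adjusted p = 0.938) and 0.35 after DEP (interval -0.33 to 1.03, adjusted p = 0.997). Without that mouse the air mean was 3.58 ± 0.44 (n = 7), and the fold changes were -0.05 and 0.04.

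F9 and F10 encode the vitamin K-dependent proteases of the middle of the cascade. F9 was 1.82 to 2.57 in air mice (median 2.06), 1.71 to 3.11 in CB mice (median 2.0) and 1.71 to 3.03 in DEP mice (median 2.24). Below the lowest air mouse lay 3 of 8 CB mice and 2 of 7 DEP mice, and above the highest lay CB mouse 445 and DEP mouse 51. Fold changes of F9 were -0.03 after CB (interval -0.42 to 0.35, limma, adjusted p = 0.989) and 0.11 after DEP (interval -0.29 to 0.51, adjusted p = 0.997). Without CB mouse 445 the CB value was -0.17.

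F10 was among the brightest spots, and its Cy5 signal reached the scanner maximum of 65535 on the arrays of 5 air, 2 CB and 3 DEP mice, so that the ratio there is a lower bound. Its log2 ratio was 4.04 to 5.83 in air mice (median 4.67), 4.01 to 6.54 in CB mice (median 4.57) and 3.97 to 6.28 in DEP mice (median 4.56). The fold changes were -0.04 after CB (interval -0.75 to 0.67, limma, adjusted p = 0.993) and 0.08 after DEP (interval -0.66 to 0.81, adjusted p = 0.997). With saturated spots left out they were 0.19 (SE 0.51) and 0.79 (SE 0.56), and neither passed the threshold. CB mouse 59 was the highest, with a Cy3 signal of 466 against a group median of 1548.25, and without it the CB fold change was -0.30. The Cy5 and Cy3 signals of F10 were both low in DEP mouse 56, at 8645 and 171.

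F5 encodes factor V, the cofactor of factor X and a substrate of activated protein C. It was 0.85 to 5.06 in air mice (median 4.26), 2.93 to 4.31 in CB mice (median 3.92) and 3.32 to 4.84 in DEP mice (median 4.38). Air mouse 442, at 0.85, stood 3.18 below the next air mouse, and the Cy5 signal of its F5 spot was 254 against a group median of 4594.5. The fold changes with all mice were -0.13 after CB (interval -0.93 to 0.68, limma, adjusted p = 0.978) and 0.30 after DEP (interval -0.53 to 1.13, adjusted p = 0.997). Without air mouse 442 the air mean was 4.43 ± 0.37 (n = 7), and the CB fold change was -0.57 (SE 0.21, unadjusted p = 0.0117, limma, adjusted p = 0.833). The DEP fold change turned to -0.15 without it (adjusted p = 0.996). CB mouse 445, at 2.93 with a Cy5 signal of 913, was the lowest of its group, and without it the CB fold change was 0.01.

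F2, prothrombin, is the precursor of thrombin. Its spot was saturated in Cy5 on all 23 arrays, so that no fold change is given. The Cy3 signal of the reference on the same spot was 338.5 to 615 in air mice (median 409.5), 422 to 934.5 in CB mice (median 645.25) and 354 to 812.5 in DEP mice (median 611). This signal comes from the commercial reference RNA. It differed by 0.64 on the log2 scale after CB (SE 0.20, limma, unadjusted p = 0.00438, adjusted p = 0.996). After DEP it differed by 0.48 (SE 0.21, limma, unadjusted p = 0.0305, adjusted p = 0.963), and neither difference passed the threshold. Over the 30 features that were saturated in Cy5 on every array the median difference in Cy3 was 0.52 after CB and 0.39 after DEP, with 27 of 30 above 0 in each. The share of all features above 0 in Cy3 is not given here. The Cy5 signal being at its maximum on each array, the ratio of F2 is a lower bound that varies with the Cy3 signal and the normalization, and its means were 6.98 in air, 6.57 in CB and 6.52 in DEP mice.

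Proc, protein C, had saturated Cy5 spots in 5 air, 3 CB and 1 DEP mouse, so that the ratio there is a lower bound. Its log2 ratio was 4.38 to 5.46 in air mice (median 4.95), 4.23 to 5.51 in CB mice (median 4.71) and 4.32 to 5.49 in DEP mice (median 4.92). The log2 ratios of the groups covered nearly the same range, with means of 4.90 ± 0.37 (SD, n = 8), 4.81 ± 0.43 (n = 8) and 4.89 ± 0.42 (n = 7). Fold changes were -0.08 after CB (interval -0.47 to 0.31, limma, adjusted p = 0.970) and -0.0046 after DEP (interval -0.41 to 0.40, adjusted p = 0.999). With saturated spots left out they were -0.15 and 0.02. The Cy5 signal taken alone, saturated spots included, differed by -0.10 after CB (SE 0.14, limma, adjusted p = 0.988). After DEP it differed by -0.55 (SE 0.14, adjusted p = 0.979). The Cy3 signal of the reference differed by 0.18 after CB and by -0.41 after DEP. The CB fold change of the ratio was -0.18 without CB mouse 59 and -7.1e-05 without CB mouse 835436.

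Pros1, protein S, was the least variable member. It was 1.45 to 2.39 in air mice (median 1.96), 1.75 to 2.43 in CB mice (median 2.06) and 1.61 to 2.42 in DEP mice (median 2.17), with no saturated spot. The fold changes were 0.08 after CB (interval -0.19 to 0.36, limma, adjusted p = 0.956) and 0.10 after DEP (interval -0.19 to 0.39, adjusted p = 0.997). The lowest air mouse, 443, had a Cy5 signal of 452.5 and a Cy3 signal of 149 on this spot, against group medians of 3672 and 844.5, and without it the fold changes were 0.01 and 0.02.

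**Figure D2:**
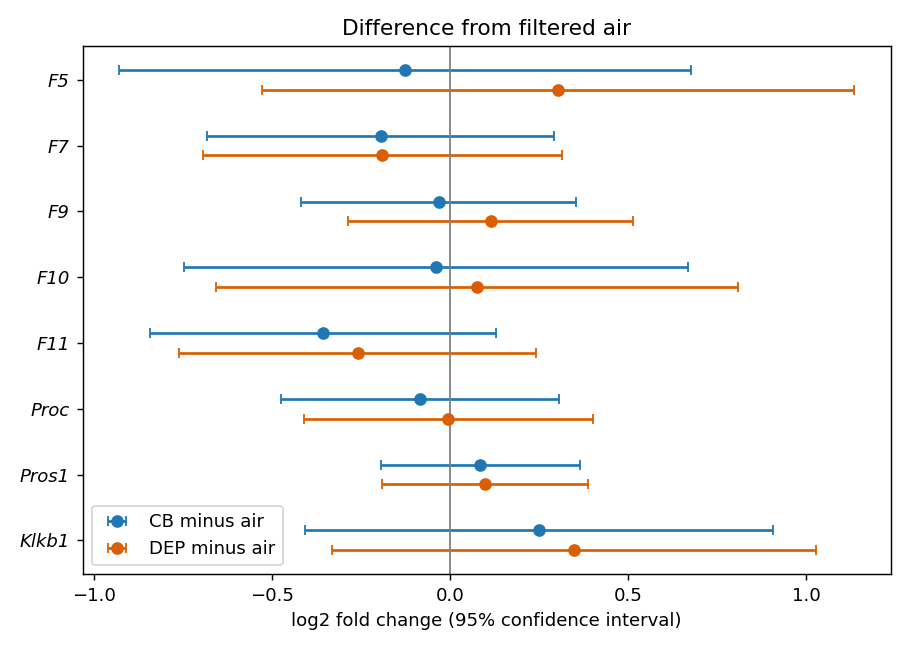
Log2 fold change against filtered air (horizontal axis) of the 8 members with a measurable change, after CB (blue) and DEP (orange), with 95% confidence intervals from the limma model. Every interval includes 0, that of Pros1 is the narrowest, and that of F5 is the widest.

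Between the particle groups 0 of 8 members passed for CB minus DEP, and 0% of all features did, while 0 of 8 members had an unadjusted p under 0.05 against 3.44% of all features. The ranges of the particle groups overlapped for all 8 members, and did not overlap for 0.0268% of all features. By the Fs test 0 features passed for CB minus DEP, and 663 had an unadjusted p under 0.05. The difference was between -0.43 (F5, interval -1.26 to 0.40) and -0.0049 (F7, interval -0.51 to 0.50).

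All 8 members with a measurable change varied more between mice of a group than the median feature. The features compared were not filtered on signal and include spots flagged absent, and the part of signal level in this was not tested. The residual SD was 0.86 for F5, 0.76 for F10, 0.70 for Klkb1, 0.51 for F7 and for F11, 0.41 for Proc, 0.40 for F9 and 0.28 for Pros1, and the median over all features was 0.24. F5 thus lay at the 99.2 percentile of all features and Pros1 at the 65.6 percentile. Single mice weighed on the highest of these values. The SD of F5 in air mice was 1.31, and 0.37 without air mouse 442. For Klkb1 in air mice it was 0.95, and 0.44 without air mouse 835432. For F10 in CB mice it was 0.82, and 0.36 without CB mouse 59. Some mice were at the end of their group in several members at once. Air mouse 49 was the highest air mouse in 5 of 8 members (F5, F7, F9, F11 and Klkb1). DEP mouse 51 was the highest DEP mouse in 5 members (F5, F9, F11, Pros1 and Klkb1) and the lowest in F10 and Proc, and its array had the most saturated Cy5 spots, 422 of the features with a listed gene. CB mouse 47 was the lowest CB mouse in F7, F10, F11 and Klkb1.

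**Figure D3:**
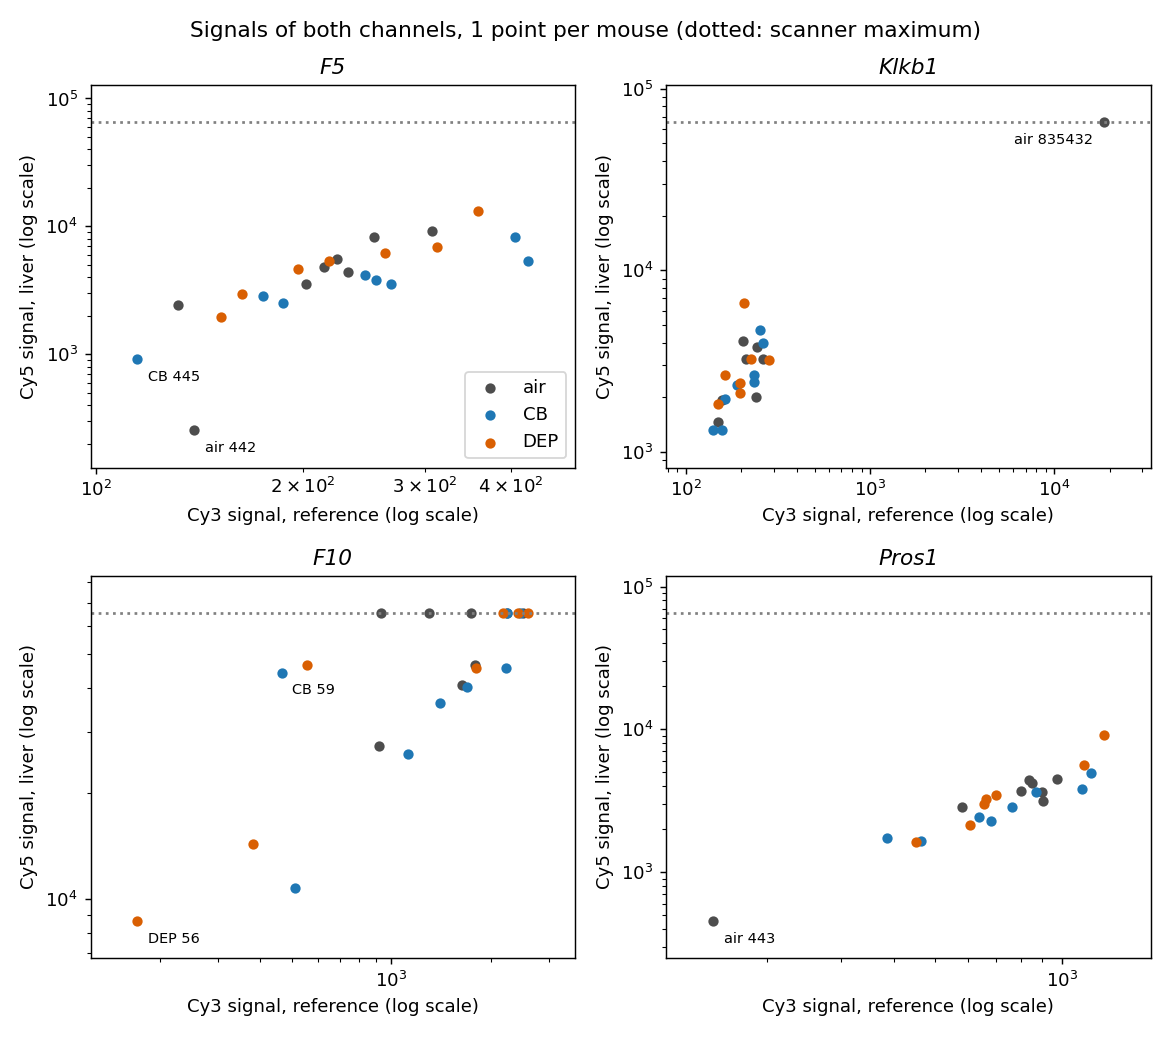
Cy5 signal of liver against Cy3 signal of the reference (both axes logarithmic, arbitrary scanner units) for F5, Klkb1, F10 and Pros1, with 1 point per mouse coloured by group and the scanner maximum of 65535 as a dotted line. The labelled mice lie away from the other points, such as air 835432 for Klkb1 and air 442 for F5.

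The neighbours F11 and Klkb1 varied together over mice. With log2 ratios centred on the group means, Pearson's r was 0.604 over 23 mice (permutation p = 0.00278, 0.00556 after adjustment over the 2 pairs), and Spearman's rho was 0.731 (permutation p = 7.0e-05, adjusted 0.00014). Without DEP mice 51 and 835434, the farthest from the median of F11, r was 0.579. It was 0.766 within the second exposure round (12 mice) and 0.533 within the last (7 mice). Air mouse 835432, with the saturated Klkb1 spot, stayed in all of these but that of the second round, and no r without it was computed. For the neighbours F7 and F10, r was -0.01 (permutation p = 0.95, adjusted 0.95) and rho -0.04 (permutation p = 0.858, adjusted 0.858). Without DEP mice 56 and 57, the farthest from the median of F7, it was 0.267, with CB mouse 59, the highest in F10, still included. In the rounds taken alone it was 0.186 (second) and -0.60 (last). The Cy5 spot of F10 was saturated in 5 air, 2 CB and 3 DEP mice, so its ratios there are lower bounds. The part of saturation in the relation of F7 and F10 was not tested. The points of a plot share the array and its normalization.

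**Figure D4:**
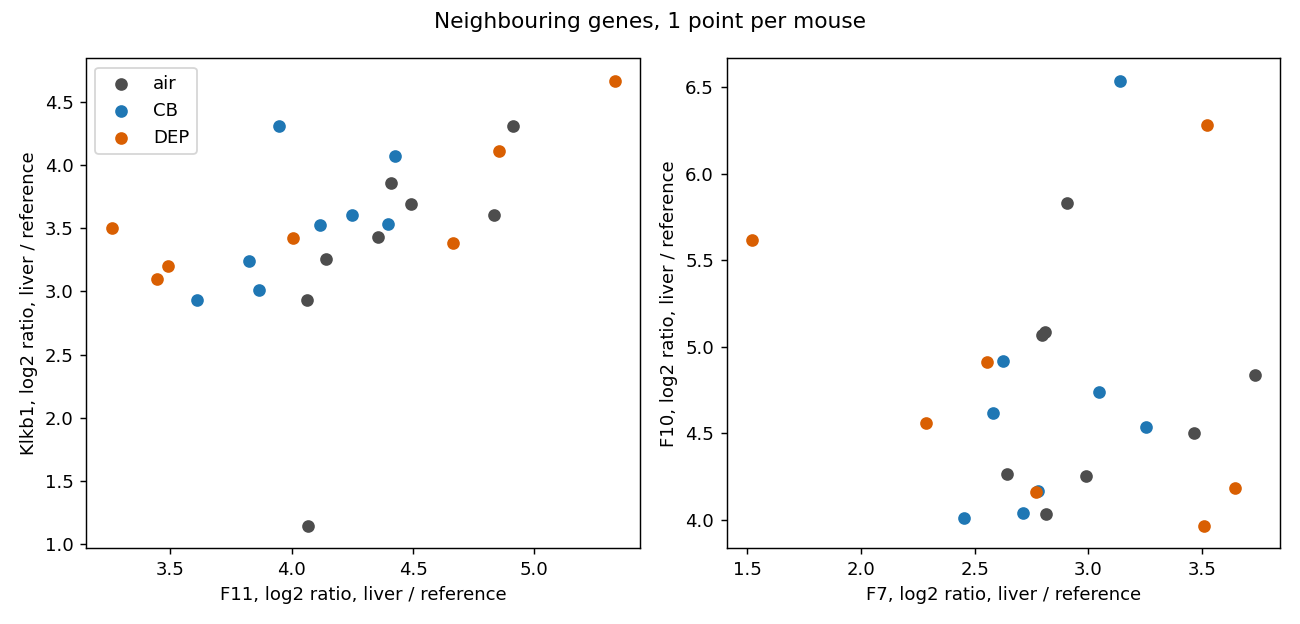
Log2 ratios of neighbouring genes on chromosome 8, Klkb1 against F11 and F10 against F7 (no unit), with 1 point per mouse coloured by group. Most points of Klkb1 rise with F11, with 1 air mouse at 1.14 and 1 CB mouse at 4.30 away from the others. The points of F10 show no trend with F7, and F10 was saturated in Cy5 in 5 air, 2 CB and 3 DEP mice.

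The relation of F11 and Klkb1 was not the highest among members. F11 had an r of 0.650 with F7, 0.645 with F9 and 0.624 with Pros1, genes that are not its neighbours, all above its r with Klkb1. By Spearman's rho these were 0.725, 0.70 and 0.661, all below its rho of 0.731 with Klkb1. Pros1 and F9 had an r of 0.732 and F9 and Klkb1 of 0.674, whereas F5 and F10 had the lowest, -0.17. Proc and F10, both with saturated spots, had an r of 0.634. Of the features of all other genes, the one most like F11 was Acsm1, with an r of 0.921 over 23 mice (rho 0.907), and 0.892 without the 2 mice farthest from the median of F11. The most like F9 was Zdhhc5 (r 0.917, rho 0.951), F7 was nearest to Fgfrl1 (r 0.885, rho 0.875) and Pros1 to Clcn4 (r 0.868, rho 0.881). For F5 it was Ncoa6, with an r of 0.886, but 0.551 without air mouse 442 and DEP mouse 55, so that this likeness rested largely on those mice. These genes were picked as the highest of all features, and no test is given.

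The mice were exposed in 3 rounds, with 2 air, 1 CB and 1 DEP mouse in the first of them, while the second held 4, 6 and 2 and the last 2, 1 and 4. With the round as a block the DEP fold change of Proc was 0.09, that of F10 was 0.28 and that of Klkb1 was 0.55, while the CB fold change of F11 was -0.44, none of them past the threshold (limma, adjusted p = 0.981, 0.956, 0.856 and 0.894). The signs of several members differed between rounds. Proc after DEP was 0.72 in the second round (unadjusted p = 0.014, adjusted p = 0.997 in limma) and -0.46 in the last (adjusted p = 0.929). After CB it was 0.15 and -0.88, the last value resting on 1 CB mouse. The DEP values of F10 were 1.21 (second round) and -0.37 (last), and those of F7 -0.59 and 0.40. In the second round the Cy5 spots of Proc and F10 were saturated in air mice 49, 50 and 442, but not in DEP mice 56 and 444. The ratios of those air mice are lower bounds, and their part in the second-round values was not tested. The Cy3 spot of F10 was flagged absent in DEP mouse 56. Klkb1 after DEP was 0.01 in the second round and 1.65 in the last, which holds air mouse 835432. F11 after CB was -0.46 in the second round (unadjusted p = 0.0479, adjusted p = 0.772 in limma) and -0.24 in the last.

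The difference of the effect between the second and the last round was tested as an interaction. In the last round the CB arm is 1 mouse, so that its spread was taken from the other mice and assumed to be like theirs. The air arm of that round is 2 mice, among them air mouse 835432 with the saturated Klkb1 spot. Klkb1 is 1 of the 2 members counted below for DEP, with a difference of -1.64 (unadjusted p = 0.0202, adjusted p = 0.969 in limma). The part of air mouse 835432 in that difference was not tested. Proc had the smallest p of the members for both particles, with differences of 1.03 for CB (unadjusted p = 0.0205, adjusted p = 0.649 in limma) and 1.18 for DEP (unadjusted p = 0.00409, adjusted p = 0.969). No member passed for either particle, against 0.396% of all features (74) for CB and 0% for DEP. At an unadjusted p under 0.05 were 1 of 8 members for CB, against 5.86% of all features, and 2 of 8 for DEP, against 4.69%.

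**Figure D5:**
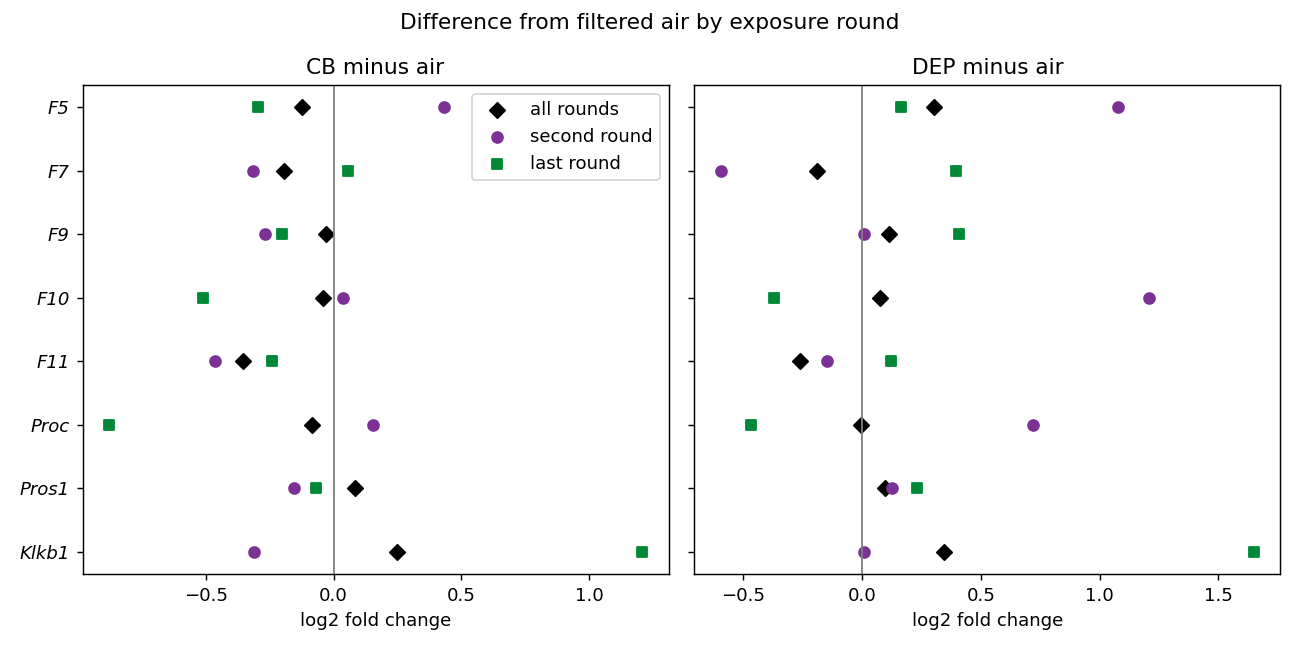
Log2 fold change against filtered air (horizontal axis) of 8 members for all rounds together, the second round and the last round, after CB (left) and DEP (right). Proc after DEP is at 0.72 in the second round and at -0.46 in the last, and Klkb1 after DEP is at 1.65 in the last.

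Genes that act with the members were counted in lists of 61 genes, of which 51 had a feature and 50 a measurable change. None passed the threshold after CB or DEP in limma, and 7 of 50 were at an unadjusted p under 0.05 after each particle, against 5.94% of all features after CB and 4.82% after DEP, each of the 7 with a saturated Cy5 spot on at least 1 array. Below air were 34 of 50 after CB (median log2 fold change -0.09) and 33 of 50 after DEP (median -0.06). Of the fibrinogen and fibrinolysis genes 4 of 9 were at an unadjusted p under 0.05 after CB and 3 of 9 after DEP, with medians of -0.22 and -0.18. Of the initiation, contact and procofactor genes they were 2 of 11 and 3 of 11. Of the vitamin K cycle genes 4 of 7 lay below air after CB and 6 of 7 after DEP, with medians of -0.07 and -0.21. Of the 11 liver transcription factors 10 lay below air after CB (median -0.11) and 4 after DEP (median 0.05). Of the 11 initiation, contact and procofactor genes 6 and 7 lay below air (medians -0.14 and -0.06), of the 7 inhibitors 4 and 6 (medians -0.01 and -0.12) and of the 5 other protein C system genes 3 and 2 (medians -0.02 and 0.01).

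Among the genes of these lists with no saturated spot, the smallest p-values after CB belonged to Esr1, Vkorc1l1, Calu and Vwf. Esr1, the estrogen receptor, was -0.20 (SE 0.10, limma, adjusted p = 0.861), and it was flagged absent on 17 arrays. Vkorc1l1, a vitamin K epoxide reductase, was 0.19, Calu, an inhibitor of the vitamin K-dependent carboxylation, was -0.15, and Vwf, the carrier of factor VIII, was 0.25 (adjusted p = 0.881, 0.888 and 0.888). After DEP they were Procr, Gas6, F2rl2 and Vwf. Procr, the endothelial receptor of protein C, was 0.29 (SE 0.16, adjusted p = 0.997), Gas6, a vitamin K-dependent ligand of receptor kinases, -0.37 (SE 0.20; -0.20 without DEP mouse 835435), F2rl2, a thrombin receptor, 0.15 and Vwf 0.27. F2rl2 was flagged absent in Cy5 on 6 arrays and Gas6 on 1. None of the differences of the genes named here exceeded the spread between mice by the test.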

How the data were processed

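Liver RNA of 23 mice was hybridised to 2-colour oligonucleotide arrays, 1 per mouse. Signal intensity of each spot and channel was deposited by the authors on a linear scale, with flags of absent spots. For the log2 ratios they deposited, the authors normalized with a lowess curve, using R 2.4.1 per the submitters' processing notes. Here log2 ratios were computed from the deposited intensity values by within-array loess in limma 3.58.1 (R 4.3.3) over the 18688 features with a listed gene (3887 others were left out), without a filter on signal. Spots at 65535 were taken as saturated. All groups entered 1 model (lmFit, eBayes, Benjamini-Hochberg, threshold 0.05). The alternatives were other ratios, normalizations, channels, filters, batch terms (3 exposure rounds, 5 array sets, 6 exposure days), single rounds, array weights, the Fs test (100 shuffles), a threshold of 0.1 and leaving out each mouse. The Cy3 signal alone and the promoter motifs were chosen after seeing the data. Relations between neighbouring genes used 100000 two-sided permutations. The limma test and the Fs test, the latter with fewer shuffles, were tried on simulated data with a CB difference added. Each feature was shuffled apart from the others there, so variation shared by a whole array was not simulated. The other tests were not tried in this way.

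The members and lists were chosen with earlier results of these data known. All measured members are named. Of the other lists the 4 genes with the smallest p without a saturated spot are named, and for members without saturated or absent spots the gene most like them over the mice. Mice carry the numbers of the labels. Nothing in the sources used here gives cages or litters, so the p-values measure the spread between mice. The number of arrays limits the precision. Promoters came from RefSeq (GRCm38.p6) and matched 9 of the 10 genes.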

Additional observations from a re-analysis of the deposited data

Results flagged for a closer look

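Within each group of mice, the gap of the highest or lowest mouse to its nearest neighbour was divided by the range of the group (Dixon's test at 95%), and 5 of 27 sets of values stood out, where chance gives about 1 in 20. For F5 these were air mouse 442, with a share of 0.754, and CB mouse 445, with 0.668. CB mouse 445 also stood out for F9, with 0.575, as its highest mouse. CB mouse 59 stood out for F10, with 0.641, and air mouse 835432 for Klkb1, with 0.564. The values without each of these mice are given above with the gene, and what set the spots apart was not tested.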

How the results depend on the processing

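Of 624 fold changes of members under all alternatives, 568 kept their sign and side of the threshold, 56 had the opposite sign and 0 were newly called. Part of the 568 could not change sign. The Fs test, a fit of just the groups compared and leaving out dim features or absent spots left the members' fold changes as they were. Quantile normalization of the mean intensity of both channels between arrays also left them so. Leaving out saturated spots could not change F5, F7, F9, F11 and Pros1, which had none. Leaving out a DEP mouse likewise keeps the CB fold change, and leaving out a CB mouse the DEP one. The share that kept its sign is thus no measure of robustness. The count of members called was 0 under each of the 17 other settings and without each of the 23 mice. The cause of each change below was not tested. After CB the number of features called was 285 with median centring, 8 without absent spots, 50 in the last round alone and 1 with array weights or at a threshold of 0.1, and it was 100 for CB minus DEP in the last round. The last round holds 1 CB mouse, which was assumed to vary like the other groups, so these calls rest on that mouse. Features called for the difference between rounds after CB were 74, and 42 with median centring.

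Signs opposite to the loess values were as follows. With median centring, CB values were -0.29 (Pros1), -0.0075 (Klkb1), -0.0013 (Vkorc1l1), -0.059 (Procr) and -0.31 (Gas6), and DEP values -0.13 (F10) and -0.072 (Pros1). With the Cy5 signal alone, CB values were 0.22 (F5), -0.56 (Klkb1), -0.043 (Gas6) and -0.15 (F2rl2), and DEP values -0.045 (F9), -0.60 (F10), 0.060 (F11), -0.50 (Klkb1) and -0.15 (F2rl2). F10 after CB was 0.014 with the deposited ratios and 0.19 without saturated spots, and Klkb1 after CB was -0.054 without them. Proc after DEP was 0.051 with the deposited ratios, 0.022 with normexp, 0.024 without saturated spots, 0.091 with the round as a block and 0.034 with array weights. Gas6 after CB was -0.0021 with normexp and -0.023 with the array set as a block, and Pros1 after CB was -0.0090 with the latter. In the second round alone, CB values were 0.43 (F5), 0.037 (F10), 0.15 (Proc), -0.16 (Pros1) and -0.31 (Klkb1), and DEP values 0.72 (Proc) and 0.12 (Esr1). In the last round alone, CB values were 0.056 (F7), -0.068 (Pros1) and -0.053 (Gas6), and DEP values 0.40 (F7), -0.37 (F10), 0.12 (F11), -0.034 (Procr) and -0.023 (F2rl2).

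Leaving out 1 mouse gave 0 to 1 features called after CB (1 without air mouse 442 and 1 without CB mouse 59). The CB fold change was -0.30 to 0.12 for F10, -0.57 to 0.029 for F5, -0.17 to 0.030 for F9, -0.073 to 0.086 for Gas6 and -0.054 to 0.40 for Klkb1. The DEP fold change was -0.17 to 0.23 for F10, -0.15 to 0.46 for F5, -0.33 to 0.029 for F7, -0.017 to 0.20 for F9 and -0.10 to 0.092 for Proc. No paired analysis was possible because the labels give each mouse its own number and match no mouse of one group to one of another. Rounds and days shared by the groups entered as blocks instead, and with the day as a random block the fold changes of members kept their sign and 0 were called. The correlation estimated within days was -0.0072, so that this fit was nearly the one without a block and could hardly change a sign. With the round as a block, Proc after DEP turned to 0.091. Saturation limits F2 on every array and F10 and Proc on several, and with 7 to 8 mice a group the intervals of the fold changes reached 0.83 on either side (F5).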
